A study of Mus musculus with 13 samples.

Results

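Peaks of the glucocorticoid receptor (GR, a hormone-activated transcription factor) were described at 4 genes of the follistatin and activin group, Fstl1, Fst, Fstl3 and Inhba, in mouse embryonic fibroblasts. They were the rows whose gene symbol, in the authors' annotation, equals one of these names. The rows numbered 34 of the 24673 peaks in the merged lists of cells given dexamethasone with lipopolysaccharide, and 0 in the 4 libraries of cells given dexamethasone alone. The genes were chosen from these same lists, so their counts are a description and no test was run on them.

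All cells came from male C57BL/6 embryos at day 13.5 and were cultured for 7 days, a primary culture of connective tissue cells from the body without head and inner organs. Dexamethasone (Dex, a synthetic glucocorticoid) was given at 1 µM for 16 h. Lipopolysaccharide (LPS, a bacterial cell wall component) was given for 3 h at 100 ng/µl, as the labels state it. The Dex+LPS groups held 3 wild-type (GR wt/wt), 4 mutant (GR Zn/Zn) and 2 knockout (GRKO/KO) libraries, and the Dex groups held 2 wild-type (GR wt/wt) and 2 mutant (GR Zn/Zn) libraries. The Zn allele alters one of the zinc fingers with which the receptor contacts DNA. A Dex+LPS peak is in 1 of 3 classes: wild-type-specific, shared by both genotypes, or mutant-specific. The wild-type list joins the wild-type-specific and shared classes, and the mutant list joins the shared and mutant-specific ones. Each list was merged over libraries by the authors, with knockout peaks removed, so it has no spread between replicates. The files give positions only, without the height of a peak, and the number of reads behind each list is unknown. A longer list can come from deeper or more libraries. Peak positions give no expression level, so neither the fibroblast label nor the genotypes were checked here against marker genes.

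Activins are secreted dimers of the TGF-beta superfamily, and Inhba encodes the subunit of activin A. They bind type II and type I receptor kinases, which phosphorylate Smad proteins that then enter the nucleus. Follistatin (Fst) and follistatin-like 3 (Fstl3) wrap around activin in the extracellular space and keep it from its receptors. Fstl1 encodes a secreted glycoprotein with a follistatin domain that is made mainly by mesenchymal cells and is better known for roles in BMP signalling and inflammation than for binding activin.

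The bases before a gene start are shown for Fstl3, the member with a wild-type-specific peak just inside the gene, and for Fstl1, the member with most peaks. Each is the 250 bases upstream of the start, from RefSeq on GRCm38.p6, plus strand, 5′ to 3′. Capitals mark the letters AGAACA, read on either strand, a single hexamer of the sequence that GR dimers recognise. Fstl3 is shown from chr10:79777024-79777273 and Fstl1 from chr16:37776805-37777054.
Fstl3: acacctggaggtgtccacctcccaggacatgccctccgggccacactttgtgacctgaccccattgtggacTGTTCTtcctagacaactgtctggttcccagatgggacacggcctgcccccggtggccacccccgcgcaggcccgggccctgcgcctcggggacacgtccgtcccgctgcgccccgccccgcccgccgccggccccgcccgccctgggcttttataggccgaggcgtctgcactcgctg
Fstl1: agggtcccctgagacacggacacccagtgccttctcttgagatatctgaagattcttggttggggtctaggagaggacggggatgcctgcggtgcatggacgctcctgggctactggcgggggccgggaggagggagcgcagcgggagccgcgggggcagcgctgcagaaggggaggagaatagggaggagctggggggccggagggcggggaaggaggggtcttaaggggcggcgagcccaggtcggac
The Fstl3 stretch held 1 such hexamer, 179 bases before the start, and the Fstl1 stretch held none. Of the 32851 promoters in the table, 16.1% held AGAACA in the same window, so a match is common. No peak of these genes overlapped its own stretch. The nearest lay 707 bp beyond it at Fstl3 and 3303 bp beyond it at Fstl1. The table held 3 of the 4 genes and has no entry for Fst. A paired GR site core (0.387% of promoters), the AP-1 site TGANTCA (6.75%), an NF-kB site (0.356%) and an interferon response core (2.98%) were searched on both strands. The same was done for the cyclic AMP site TGACGTCA (1.55%), the Smad site GTCTAGAC (0.167%) and the TEAD site GGAATG (12.6%). None of these motifs occurred in the windows of Fstl1, Fstl3 or Inhba. GC content was 71.2% at Fstl3, 68% at Fstl1 and 43.2% at Inhba, against a median of 52.4% over all promoters. The Inhba window (16011601 to 16011850) precedes the start that the authors' annotation uses and lies inside the longer RefSeq gene, which begins at 16004256.

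Under Dex+LPS, Fstl1 carried GR peaks in both genotypes in like numbers, whereas the peaks at Fst and Fstl3 were all wild-type-specific. At Fstl1 the lists held 6 wild-type-specific peaks, 8 that were shared and 9 that were mutant-specific. Fst had 5 wild-type-specific peaks and none of the other classes. Fstl3 had 1 wild-type-specific peak alone. Inhba had 3, 1 and 1 peaks in the same order. All 4 genes thus had a wild-type-specific peak, and 2 of the 4, Fstl1 and Inhba, also had peaks of the other classes. Of 21887 protein-coding genes, the share with at least 1 peak was 30.6% for the wild-type-specific class, 9.37% for the shared one and 5.36% for the mutant-specific one. Because the genes were picked from these lists, nothing is read from that comparison.

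**Figure D1:**
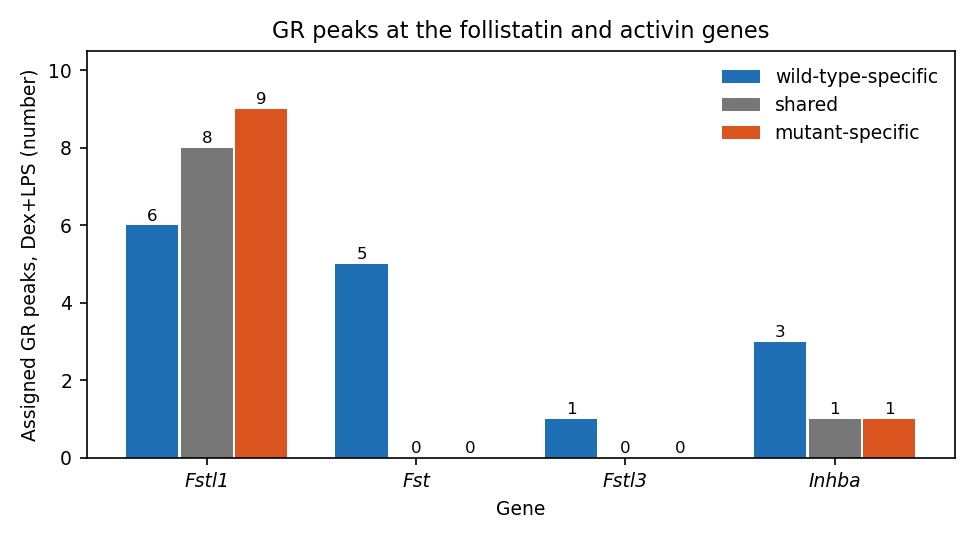
Number of GR peaks assigned to each gene under Dex+LPS (y axis) for Fstl1, Fst, Fstl3 and Inhba (x axis); bars are the wild-type-specific, shared and mutant-specific classes of the merged lists, with no error because each is a single list. Fstl1 has 6, 8 and 9 peaks, while Fst has 5 and Fstl3 has 1, all wild-type-specific.

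Over the 4 genes, 15 peaks were specific to the wild type, 9 were shared and 10 were specific to the mutant. The wild-type list held 24 and the mutant list 19, a ratio of 1.26, where all genes together gave 22486 and 5720, a ratio of 3.93. The order of the 2 lists turned when assigned peaks in the gene body alone were counted (8 wild-type and 12 mutant peaks), and when any peak in the body or within 10 kb was counted (15 and 16). Of the 24 wild-type peaks, 37.5% were shared (exact Clopper-Pearson 95% interval 18.8 to 59.4%), against 15.7% of all wild-type peaks (15.2 to 16.2%). The intervals cover counting error only, and peaks of 1 gene are not independent. The difference rested on Fstl1: without it the other 3 genes had 10 wild-type and 2 mutant peaks, of which 1 was shared (10%, interval 0.253 to 44.5%).

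Inhba, the ligand gene, lies on chromosome 13 from 16011851 to 16027211 on the plus strand in the authors' annotation, and from 16004256 to 16031609 in RefSeq (GRCm38.p6). All 5 of its assigned peaks lay downstream of the gene as the authors drew it. A wild-type-specific peak at 16030589 to 16030788 sat 18.8 kb past the start, within the longer RefSeq gene. The shared peak followed at 16032785 to 16032984, 1996 bp further on. The mutant-specific peak at 16039985 to 16040184 came 7000 bp after that. These 3 peaks form a small group, with 1 peak of each class, beyond the end of the gene in the authors' annotation. The other wild-type-specific peaks were distant, 378 kb (16389272 to 16389471) and 401 kb (16412634 to 16412833) past the start, and were tied to Inhba only as the gene the annotation chose. By contrast, a wild-type-specific peak inside the Inhba body (16019086 to 16019285, 7.33 kb past the start) was assigned to B230303A05Rik, a transcribed pseudogene on the opposite strand that overlaps Inhba. Counted by position, the gene therefore had a wild-type-specific peak inside it that its row count leaves out. Genes with 4 wild-type peaks, as Inhba has, had no mutant peak in 44.3% of cases. Inhba is among the others.

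Fst, the activin antagonist, lies on chromosome 13 from 114452262 to 114458951 on the minus strand. One wild-type-specific peak, at 114459040 to 114459239, had its edge 89 bp upstream of the gene start. In RefSeq this position also lies in the long noncoding RNA gene Gm41074. The other 4 formed an upstream group. They lay 29.4 kb (114488259 to 114488458), 31.7 kb (114490577 to 114490776), 35037 bp (114493889 to 114494088) and 48.9 kb (114507744 to 114507943) from the start. No Fst peak lay inside the gene. The nearest peak of the mutant list was 486 to 535 kb away from each of the 5, so no mutant peak stood near any of them under another gene's name. For all wild-type-specific peaks the median distance to a mutant peak was 107 kb. Among genes with exactly 5 wild-type peaks, 40% (142 of 355) had no mutant peak, and among all genes with a wild-type peak 65.6% had none. Fst is thus 1 of many genes of its peak number with no mutant peak.

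Fstl3, the second activin antagonist, lies on chromosome 10 from 79777274 to 79782630 on the plus strand. Its 1 peak, wild-type-specific, was inside the gene at 79777981 to 79778180, centred 806 bp after the start. The nearest peak of the mutant list was 276 kb away, and the nearest peak of any class was 73386 bp away. Of genes with 1 wild-type peak, 81.6% had no mutant peak. Fst and Fstl3 held the only peaks of the group centred within 1 kb of a gene start, 2 of its 15 wild-type-specific peaks (13.3%), against 9.39% of all wild-type-specific peaks. None of the 10 mutant-specific peaks of the group lay so close, where 15.3% of all mutant-specific peaks did.

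**Figure D2:**
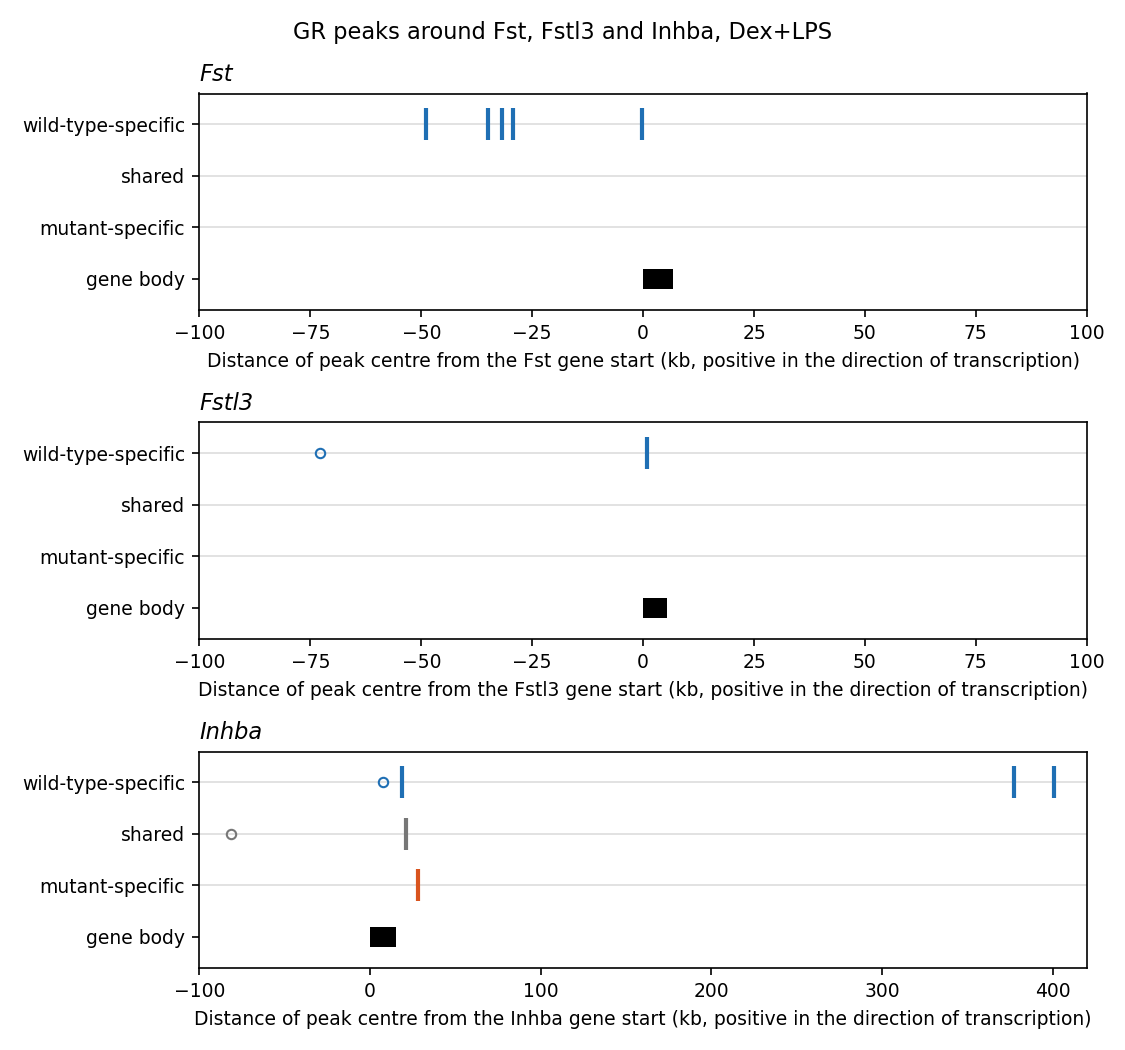
Positions of Dex+LPS peak centres around Fst, Fstl3 and Inhba in kb from the gene start (x axis), by class (y axis); bars mark assigned peaks, open circles mark peaks within 100 kb of the start assigned to another gene, and the black box is the gene body in the authors' annotation. Fst and Fstl3 show wild-type-specific peaks alone, including 1 beside each start. Inhba shows 1 peak of each class just past the end of its box.

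Fstl1 lies on chromosome 16 from 37777055 to 37836516 on the plus strand, a body of 59.5 kb. Its 23 peaks ran from 48.1 kb before the start to 62.8 kb after it. Upstream came the shared peaks at 37728840 to 37729039 and 37732317 to 37732516, then the wild-type-specific peaks at 37740278 to 37740477 and 37742256 to 37742455. No peak followed until the first part of the gene. There a dense group, from 3.40 to 5.93 kb past the start, held wild-type-specific peaks at 37780358 to 37780557 and 37780934 to 37781133, a shared peak at 37781619 to 37781818 and a wild-type-specific peak at 37782213 to 37782412. The first mutant-specific peak, at 37782889 to 37783088, stood at its end, 476 bp after the last of these. Peaks of both genotypes therefore neighboured each other in this group without coinciding, except at the shared one.

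The middle of the Fstl1 gene carried peaks of the mutant list that were mostly absent from the wild-type list. After the first mutant-specific peak came 4 more, at 37787936 to 37788135, 37788529 to 37788728, 37789158 to 37789357 and 37790174 to 37790373. These 5 made an unbroken run of mutant-specific peaks over 7.49 kb. A shared peak (37800753 to 37800952) separated it from a second run of 4 over 9.19 kb, at 37804220 to 37804419, 37804925 to 37805124, 37810977 to 37811176 and 37813205 to 37813404. Another shared peak closed the stretch at 37814862 to 37815061. Throughout this stretch there was no wild-type-specific peak, and wild-type binding was listed only at these shared peaks. Genome-wide, 1530 runs of mutant-specific peaks were uninterrupted by a wild-type or shared peak. A run goes by order along the chromosome, whatever the distance between its peaks. In the run of 5, the last 4 each lay 393 to 816 bp from their nearest peak and can be parts of 1 broad region. Single peaks count as runs here, and 328 of the runs (21.4%) had 2 or more peaks. Of all runs, 64 (4.18%) had 4 or more peaks and 32 (2.09%) had 5 or more.

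All 9 mutant-specific peaks of Fstl1 lay inside the gene, where 46.7% of all mutant-specific peaks lay inside theirs. The Fstl1 body spans 59.5 kb, and gene length was not accounted for in this comparison. Inside the body the mutant list had 12 peaks (2.02 per 10 kb) and the wild-type list 7 (1.18 per 10 kb). Of the 9, 1 (11.1%) was within 1 kb of a wild-type peak, where 19.4% of all mutant-specific peaks were. The median gap was 3.97 kb, against 7.54 kb over all mutant-specific peaks. In the other direction, 3 of the 6 wild-type-specific peaks were within 1 kb of a mutant peak, where 3.82% of all wild-type-specific peaks were. Neighbouring peaks 200 bp wide can be parts of 1 broad region, which these files cannot tell apart. Around the end of the gene, a wild-type-specific peak (37836156 to 37836355, 161 bp before the end) was followed by shared peaks at 37836833 to 37837032, 37838129 to 37838328 and 37839722 to 37839921. These 4 peaks lie within the long noncoding RNA gene Gm41452 in RefSeq. The end of Fstl1 thus held binding listed in both genotypes and no mutant-specific peak.

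**Figure D3:**
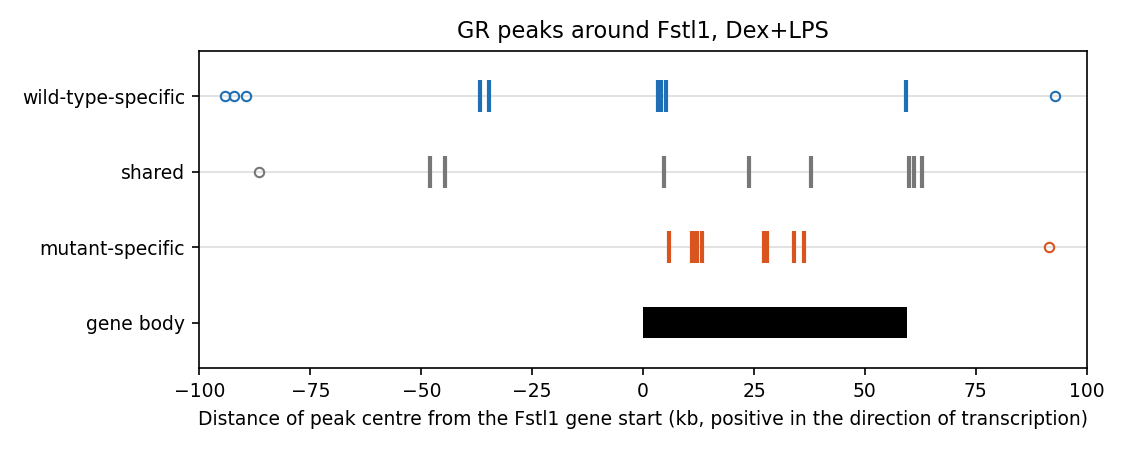
Positions of Dex+LPS peak centres around Fstl1 in kb from the gene start (x axis), by class (y axis); bars mark assigned peaks, open circles mark peaks within 100 kb of the start assigned to another gene, and the black box is the gene body. The 9 mutant-specific peaks all fall inside the gene, between the group of wild-type-specific peaks near its start and the shared peaks at its end.

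Fstl1 stood high in the mutant list as a whole. With 17 peaks it was exceeded by 6 of the 3194 genes that had a mutant-list peak, and with 14 wild-type peaks by 79 of 8294. Of its wild-type peaks, 57.1% (8 of 14, interval 28.9 to 82.3%) were shared, and of its mutant peaks 47.1% were shared, against 15.7% and 61.8% over all genes. Among the 284 genes with 10 or more wild-type peaks, a limit set after the values were seen, Fstl1 was the only one with at least as many mutant peaks (0.352%). The next were 3110039I08Rik with 20 wild-type and 19 mutant peaks and Prl2c3 with 18 and 17. With a limit of 5 wild-type peaks, 28 of 1276 genes (2.19%) had at least as many mutant peaks, so the position of Fstl1 rests partly on where the limit is placed. These ranks describe single merged lists and carry no error.

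**Figure D4:**
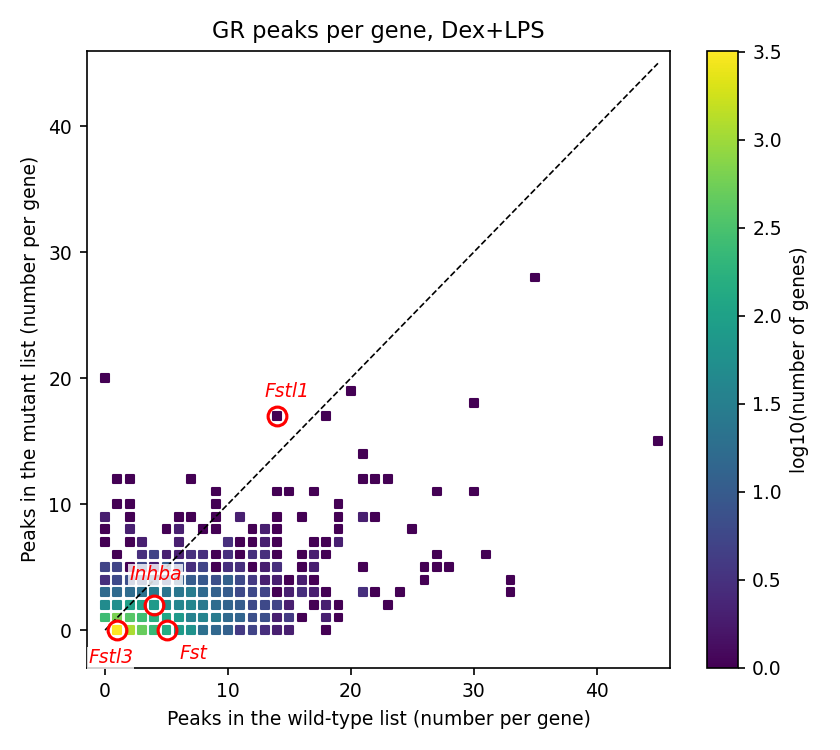
Number of GR peaks per gene in the wild-type list (x axis) and the mutant list (y axis) under Dex+LPS; each square is a pair of counts coloured by the number of genes (log10), the dashed line marks equal counts, and 3 genes with more than 45 wild-type peaks are not drawn. Fstl1 (14 and 17) lies above the line; Fst (5 and 0), Fstl3 (1 and 0) and Inhba (4 and 2) lie below it.

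By the sum of differences in the 3 class counts, the gene most like Fstl1 was Vmp1 (6 peaks specific to the wild type, 8 shared and 3 specific to the mutant, a difference of 6 peaks). At a difference of 8 stood 5 genes, of which Gm20139 (6, 8 and 1) and Sprr2a1 (7, 2 and 8) were nearest in length. No gene matched Fstl1 more closely than Vmp1. The pattern of Fst was met exactly by 141 genes, of which Tmem17, Cenpw and Sucnr1 were nearest in length. That of Inhba was met by 29, with Ptges, Ccnl1 and Gm4632 nearest in length. Likeness over 3 counts is coarse and says nothing of the genes' function.

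Other genes of the pathway had more wild-type than mutant peaks, much as all genes together did. The ratio of mutant to wild-type peaks was 0.267 at the listed genes and 0.254 over all genes. Of 66 listed genes, 33 had a wild-type peak, where 33% of all protein-coding genes had one. A mutant peak was found at 16 of the 66, where 12.6% of all protein-coding genes had one, and 31 had neither. Both counts stood above the share over protein-coding genes. The lists were chosen with earlier results of these data known, so nothing is read from that. Of the 116 peaks in the wild-type list, 20.7% were also mutant peaks (interval 13.7 to 29.2%, counting error only). Among 18 ligands, 5 had a wild-type and 1 a mutant peak. Bmp6, a bone morphogenetic protein gene, had 3 wild-type-specific peaks. Tgfb2, which encodes TGF-beta 2, had 2 and 1 shared peak. A mutant-specific peak was found at 0 of the 18 ligands, near the 5.36% of protein-coding genes that had one.

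Among 14 receptors and coreceptors, 8 had a wild-type and 3 a mutant peak. Tgfbr3, the coreceptor betaglycan, had 8 peaks specific to the wild type and 4 shared ones, and Acvr2a, a type II activin receptor, had 7 and 2. Among 14 Smads and their regulators, 8 had a wild-type and 7 a mutant peak. The inhibitory Smad7 had 6 peaks specific to the wild type and 2 shared ones, and Smad3, which relays activin signals, had 4 and 3. Skil, a repressor of Smads named here after its values were seen, was bound in the mutant list alone, with 3 peaks. Over all genes, 16 had 3 mutant and 0 wild-type peaks. Skil was 1 of 2 listed genes bound in the mutant list alone. The other, with 1 peak, is among the further genes with follistatin domains. Genes with 1 mutant and 0 wild-type peaks numbered 265 over all genes. The share of all genes bound in the mutant list alone is not given here, so nothing is read from these 2 genes. Among 9 secreted and membrane antagonists, 6 had a wild-type and 2 a mutant peak. Chrd, which encodes the BMP antagonist chordin, had 3 peaks specific to the wild type and 1 shared one. A mutant-specific peak was found at 0 of these 9 genes, also near the background of 5.36%. Among 11 further genes with follistatin domains, 6 had a wild-type and 3 a mutant peak. Igfbp7, a secreted matrix protein gene, had 5 peaks specific to the wild type, 3 shared and 1 specific to the mutant, and Sparc, a matrix glycoprotein gene, had 6, 0 and 1. The listed genes thus had at most 4 mutant peaks each, against 17 at Fstl1.

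**Figure D5:**
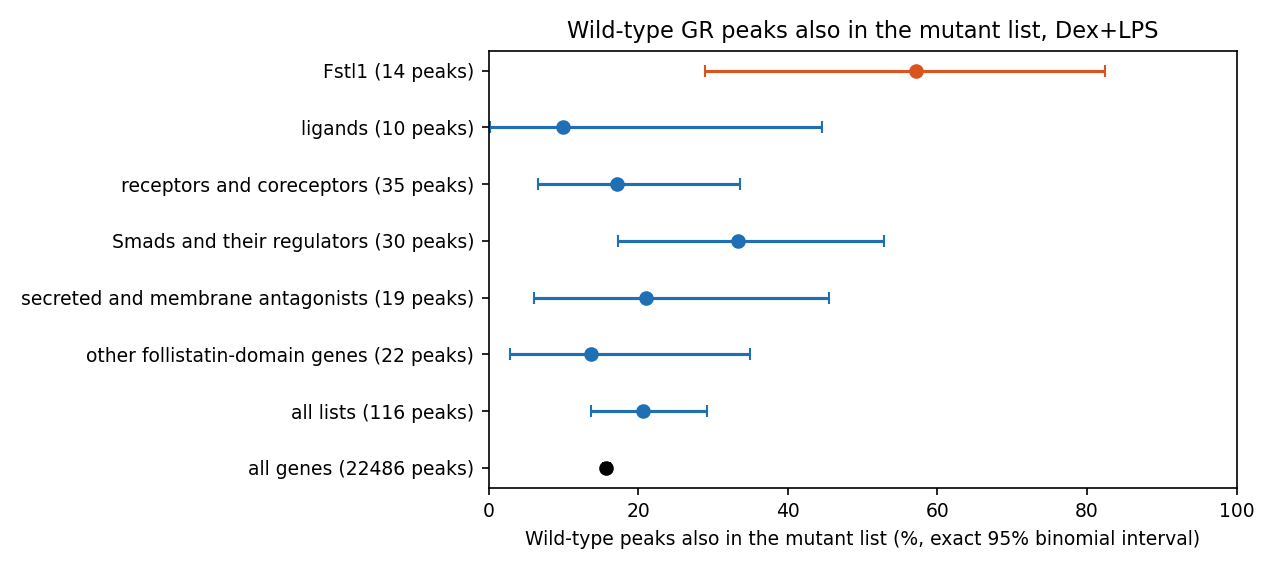
Percentage of wild-type peaks also in the mutant list under Dex+LPS (x axis, with exact 95% binomial intervals) for Fstl1, the pathway lists and all genes (y axis, number of wild-type peaks in brackets). Fstl1 is at 57.1%, the lists lie between 10% for ligands and 33.3% for Smads and their regulators, and all genes are at 15.7%.

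Under Dex alone, no library had a peak at Fstl1, Fst, Fstl3 or Inhba. The wild-type libraries held 412 and 854 peaks and the mutant libraries 53 and 60. Protein-coding genes with a peak made up 1.09% and 1.86% for the wild-type libraries, and 0.142% and 0.183% for the mutant ones. Against so low a background, 0 of 4 genes is no result about these genes, and it does not tell whether LPS is needed for the Dex+LPS peaks. Single-library lists and merged lists also differ in how they were made. That difference and the treatment cannot be told apart here.

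None of the 34 Dex+LPS peaks was overlapped by a Dex peak. The share of all Dex+LPS peaks so overlapped is not given here, so this is no result about these genes. At Fstl1 the nearest Dex peak was 1.28 Mb away, in both wild-type libraries and in mutant library 2, and was assigned to Igsf11. Chromosome 16 held 4 and 6 of the wild-type Dex peaks. At Fst the nearest lay 131 kb upstream in wild-type library 2 (114589958 to 114590554, assigned to 4930467J12Rik). It ended 1 bp short of a wild-type-specific Dex+LPS peak at 114590556 to 114590755. In wild-type library 1 the nearest was 1.67 Mb from Fst, so that peak was listed in a single library. At Fstl3 the nearest were 444 and 971 kb away and at Inhba 756 kb and 1.24 Mb, in wild-type libraries 1 and 2. Inhba, Fst and Fstl3 lie on chromosomes 13 and 10. Chromosomes 10 to 14 held 68.2% and 73.9% of the wild-type Dex peaks and 30.7% of the wild-type-specific Dex+LPS peaks. Their part in these distances was not tested.

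No sequence inside a peak is shown, since only promoter sequences were at hand, and whether a peak lies in an exon or an intron was not analysed here.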

How the data were processed

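Peaks of GR ChIP-seq from 13 libraries were used. Per the submitters' processing notes, BWA 0.7.13, Picard 1.119, MACS2 2.1.0 and the build mm10 were used, without a role for each. Per the file names, the authors merged Dex+LPS libraries by genotype, removed knockout peaks and split the rest into 3 lists, and deposited 1 list per Dex library with a false discovery rate threshold. Merging, control and gene annotation are not given in the sources used here. All deposited values are positions and distances in base pairs. Dex+LPS peaks are 200 bp wide and Dex peaks 202 to 3852 bp. Coordinates are 1-based.

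Peaks were taken with the authors' gene. Distances to a gene start run from the peak's centre, and gaps between peaks from edge to edge. An overlap needed 1 bp. Overlaps and gaps were checked against bedtools 2.31.1 on 500 simulated intervals. Genes were matched by Entrez identifier to RefSeq (GRCm38.p6), all 4 genes among them. The 66 listed pathway genes were all found there by symbol, and their identifiers were then used. Shares carry exact Clopper-Pearson 95% intervals. Computation ran in Python 3.11.15 (scipy 1.17.1, pandas 2.3.3, numpy 2.4.6, matplotlib 3.10.9).

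The 4 genes, the pathway lists and the motifs were chosen with earlier results of these data known. Named pathway genes are the 2 of each list with most peaks and Skil, except 1 gene that is not reported here. Genes most like a member are the 3 with the smallest summed difference in class counts, for members with 3 or more peaks, with ties broken by gene length. No test across samples was run, because the Dex+LPS lists are merged and the Dex libraries held no peak at these genes.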

Additional observations from a re-analysis of the deposited data

How the results depend on the processing

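The totals of 15 (wild-type-specific), 9 (shared) and 10 (mutant-specific) depend on how peaks are tied to genes. With assigned peaks in the gene body alone, 5 wild-type-specific and 3 shared peaks were left, and 9 mutant-specific ones. With any peak in the body or within 10 kb of it, 8 wild-type-specific peaks were counted. When peaks within 1 kb of each other were joined into 1 site, the sites with mutant-specific peaks alone numbered 5. The ratio of wild-type to mutant peaks (1.26) was 0.667 for gene bodies and 0.938 with 10 kb around them. Its order was kept for any peak within 100 kb of the start (1.36), for peaks within 50 kb (1.125) and for joined sites (1.43). All these settings were applied to the ratio after seeing the data. The shared percentage of wild-type peaks (37.5%) was 10% without Fstl1. Under the other alternatives it ran from 33.3%, for peaks within 50 kb of the start, to 50%, when a mutant peak within 1 kb counted as shared. The count of 0 under Dex held for peaks within 100 kb of a start and for gene bodies, and without either library of a genotype (0 in each case). Leaving out a Dex+LPS library was not possible in merged lists, and no stricter threshold was tried because the files hold no score. No paired analysis was possible because the Dex+LPS lists are merged and no test was run. Depth is unknown, so a missing peak is not shown to be missing binding.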

Other observations

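Some peaks near these genes carry another gene's name. Upstream of Fstl1, 87 to 94 kb before its start, wild-type-specific peaks at 37682797 to 37682996, 37684723 to 37684922 and 37687396 to 37687595 and a shared peak at 37690374 to 37690573 were assigned to Ndufb4, a gene of mitochondrial complex I. Beyond the other end, a mutant-specific peak (37868446 to 37868645) and a wild-type-specific peak (37869790 to 37869989) were assigned to Lrrc58. Near Fstl3, a wild-type-specific peak at 79704395 to 79704594 was assigned to Bsg, which encodes the membrane glycoprotein basigin. Before Inhba, a shared peak at 15929974 to 15930173, 81.8 kb from the start, was assigned to B230303A05Rik. Fst had no such neighbour within 100 kb.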
